A study of Homo sapiens with 6 samples.

Results

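The comparison set HCT116 cells carrying a short hairpin RNA (shRNA) against BZW2 beside HCT116 cells carrying a non-targeting shRNA. HCT116 is an established human colorectal cancer line, and the titles of both samples give it as HCT116WT. Both hairpins came in lentiviral vectors, and puromycin at 1 µg/ml was used to select stable cells, so the controls had met the virus and the drug as well. The labels do not say whether each stable line grew from a pool of cells or from a clone. The comparison used 2 of the 6 samples in the series; the other 4 were the same pair in the colorectal cancer lines HT29 and SW480. The labels name total RNA as the molecule; whether tailed RNA was then selected, or ribosomal RNA removed, is not given in the sources used here. Genes were taken if the deposited table gave their identifier a single row and a value in both HCT116 columns, which held for 11953 of 13040 identifiers.

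Each side had 1 library. No difference below could therefore be set against a spread between replicates, no test was run, and the effect of the hairpin, of the loss of BZW2 and of the individual library cannot be told apart. Recovered reads came to 5640626 in the control and 2187373 in the knockdown library. Values are given as reads in each library, then as a log2 ratio of CPM (reads scaled to library depth), knockdown over control. Counting intervals are at 95% and cover counting error only. A gene counted as higher or lower when the ratio was at least 2-fold and it reached 5 CPM in the higher library, which 11363 genes did. Ratios are given before and after removal of the trend with transcript GC content and length described below. All 6 libraries held epithelial markers: EPCAM, KRT8, KRT18, KRT19 and CDX2 were among the 11 of 15 colorectal epithelial markers listed in HCT116. The others, KRT20, VIL1, CDX1 and LGALS4, had no value in any of the 6 libraries. None of 10 immune and 0 of 5 endothelial markers had a value in HCT116. The 1 of 8 fibroblast markers listed in HCT116, COL1A1, had 11 reads in the control and 12 in the knockdown library.

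BZW2 and its paralogue BZW1, also called eIF5-mimic proteins, resemble the part of the initiation factor eIF5 that binds eIF2, and act on how strictly ribosomes choose a start codon. Start codon choice and the eIF2 pathway also set the translation of ATF4, the transcription factor that drives amino acid and stress genes. Most messenger RNAs end in a poly(A) tail. The clustered histone genes, which are copied in step with DNA replication, are the exception: their messages end in a short stem-loop. Small nuclear, small nucleolar, Y and 7SK RNAs also lack the tail, so their share in a library depends on how RNA was selected, which is not known for these libraries, as well as on the cells.

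The largest differences between the 2 libraries lay in these tail-less RNAs. The clustered histone genes held 0.477% of control reads and 13.5% of knockdown reads, and the small RNA genes 0.326% and 2.75%. The stem-loops of 4 histone messages that differed strongly are shown with that of H2AX, whose message can end either at a stem-loop or in a tail. They come from GENCODE 29 transcripts on GRCh38, with 5 bases on each side, and capitals mark the 16 bases of the stem and loop.
H2BC13: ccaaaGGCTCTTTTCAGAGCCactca
H2BC4: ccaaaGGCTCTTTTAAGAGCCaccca
H4C8: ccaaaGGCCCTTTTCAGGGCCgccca
H2AC11: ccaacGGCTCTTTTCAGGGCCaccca
H2AX: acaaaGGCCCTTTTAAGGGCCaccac
The pattern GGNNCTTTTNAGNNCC was searched on the transcribed strand of every annotated transcript. It was found in 17 of the 28 listed clustered histone genes (60.7%), in H2AX and in 22 of 11835 other genes (0.186%). Of the 11 histone genes without it, 6 (H1-2, H2AC20, H2AC21, H2AC7, H2BC12 and H3C13) had only transcript models that stop at the stop codon, so the stem-loop lies outside the model. The median log2 ratio before trend removal was 5.49 with the pattern and 5.51 without. Among the 22 other genes with the pattern the median was −0.20 (range −3.58 to 1.84). The pattern was taken at any place in a transcript, so a match in these genes need not be a stem-loop at the message end.

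All 28 clustered histone genes were at least 2-fold higher in the knockdown library, beside 26.8% of all genes with enough reads, and all 28 were still so after trend removal, beside 18.3%. Their ratios ran from 4.25 to 6.27 before removal. H3C12 (chromosome 6, 27890382 to 27893106, GRCh38), which encodes histone H3, had 432 reads in the control and 10424 in the knockdown library, 77.7-fold more after scaling (70.6 to 85.8). H2BC13 (chromosome 6, 27807444 to 27807931) had 49 and 1212 reads and H2AC7 (chromosome 6, 26198851 to 26199243) 141 and 3126. Core and linker histones were thus all far higher in the knockdown library, the H2A, H2B, H3 and H4 genes and the H1 genes alike. H4C3 had 1496 and 25508 reads, and the linker histone gene H1-2 had 3992 and 24261. Several of these genes have near-identical copies, H3C14 and H3C15 among them, and the split of reads among copies is uncertain.

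In the other 2 lines the same genes were higher by far less. The median of the class before removal was 1.45 in HT29 (26 genes with enough reads) and 1.17 in SW480 (25 genes), against 5.49 in HCT116. The histone share of reads went from 0.526% to 1.29% in HT29 and from 0.354% to 0.782% in SW480. The 3 control libraries thus held similar shares, and the HCT116 knockdown library stood apart from the other 5.

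**Figure D1:**
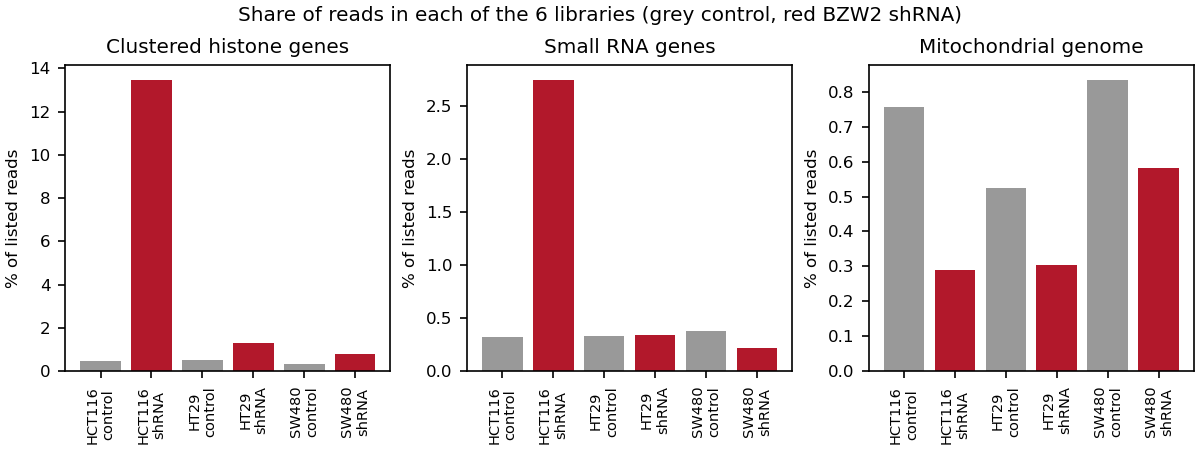
Percent of recovered reads (vertical axis) in clustered histone genes, small RNA genes and genes of the mitochondrial genome, 1 bar per library, grey for control and red for BZW2 shRNA. The HCT116 knockdown library stands at 13.5% histone and 2.75% small RNA reads, above the other 5 libraries in both.

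Small RNAs were also higher in the HCT116 knockdown library, while their medians in the other lines lay near or below 0; the difference between lines was not tested. Of 86 listed small RNA genes 83 had enough reads. All 83 were at least 2-fold higher before removal (median 3.30, range 1.68 to 4.52), and 82 after it (median 3.02). The minimum of 5 CPM applies to the higher library. Many members thus passed it through the knockdown library alone, among them SNORD99 (5 and 36 reads). The count of 83, the median and the range therefore follow in part from that minimum. The 3 without enough reads were not higher in this way: RN7SKP173 had 21 reads in the control and 4 in the knockdown library, and RNU4-25P had 20 and 2, while SNORA33 had 28 control reads and a log2 ratio of 0.05. The median before removal was 0.09 in HT29 and −0.66 in SW480, where 0 of 55 and 0 of 55 were at least 2-fold higher after it.

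Small nucleolar RNAs mostly guide chemical changes of ribosomal RNA, and most are cut from introns of host genes, so their reads can include host pre-mRNA. The medians below are of members with enough reads, so they too follow in part from the minimum in the higher library. The 15 C/D box members, a kind that mostly guides methylation, had a median of 3.55. The 32 H/ACA box members, a kind that mostly guides pseudouridylation, had a median of 3.23. Among the spliceosomal RNAs the 10 U1 genes and variants had a median of 2.88, the 7 U5 genes 2.93 and the 2 U4 genes 3.22. RNU4-2 had 1252 and 3520 reads. The 10 copies of 7SK, an RNA that restrains transcription elongation, had a median of 3.63; being near-identical to the 7SK gene, whose identifier was repeated in the table and is not used here, they share its reads in an unknown way. The small RNAs farthest from control with at least 200 reads were SNORA80B (31 and 242 reads), RNY1 (73 and 476 reads) and SNORD104 (71 and 374 reads). SNORA80B had 4.92 CPM in the control, so it passed the minimum of 5 CPM through the knockdown library. Their sequences, 1 for each kind of RNA, are printed from GENCODE 29 on GRCh38, with capitals for the ACA box of SNORA80B, the run of T that ends the polymerase III transcript RNY1, and the C and D boxes of SNORD104.
SNORA80B: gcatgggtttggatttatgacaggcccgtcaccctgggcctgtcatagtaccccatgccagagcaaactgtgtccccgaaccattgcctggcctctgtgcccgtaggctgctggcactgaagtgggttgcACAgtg
RNY1: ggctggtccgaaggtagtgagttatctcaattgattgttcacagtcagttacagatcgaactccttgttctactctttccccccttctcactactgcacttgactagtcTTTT
SNORD104: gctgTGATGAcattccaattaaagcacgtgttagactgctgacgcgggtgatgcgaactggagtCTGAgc
SNORA80B lies on chromosome 2 (10446714 to 10446849, minus strand), RNY1 on chromosome 7 (148987136 to 148987248, minus strand) and SNORD104 on chromosome 17 (64146083 to 64146152, plus strand). Histones and small RNAs together took 0.80% of control and 16.2% of knockdown reads. Their median log2 ratio was 3.59 before and 3.40 after trend removal.

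**Figure D2:**
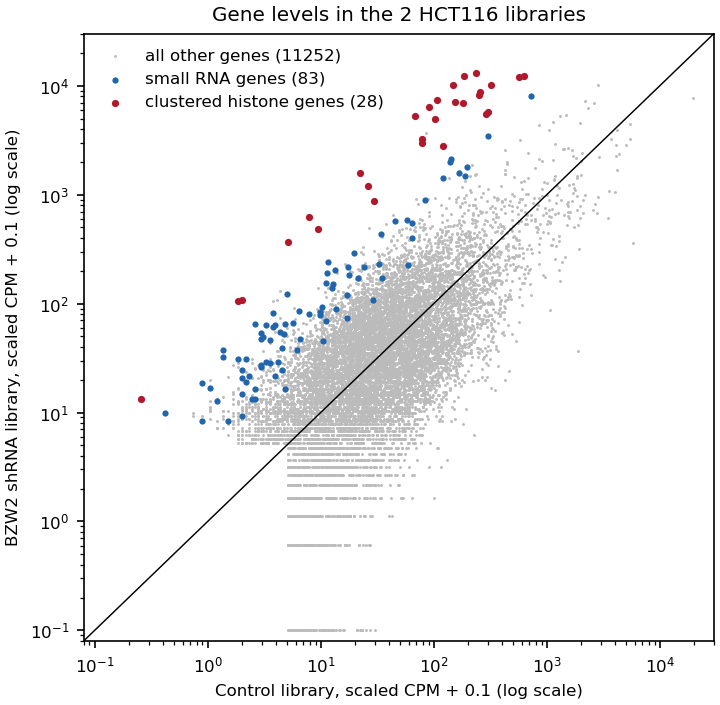
Scaled CPM plus 0.1 of each gene with enough reads in the control (horizontal, log scale) and the BZW2 shRNA library (vertical, log scale); the line marks equal levels. The 28 clustered histone genes (red) and 83 small RNA genes (blue) all lie above the line, and 11252 other genes (grey) lie on both sides of it.

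BZW2 itself had 530 reads in the control and 29 in the knockdown library. The level was 17.6% of control (11.7 to 25.6%), a log2 ratio of −2.47. BZW2 transcripts are AT-rich, with 36.9% GC in the longest one, and genes of that GC content and length were lower in the knockdown library as a rule. After the trend was removed the log2 ratio was −1.01. Leaving aside tail-less RNA, 16.3% of genes were at least 2-fold lower after removal, and the standard deviation of ratios was 1.13. The BZW2 value after removal thus lay within the spread of other genes in HCT116. In HT29 the ratio was −3.51 before and −3.16 after removal, and in SW480 −2.85 and −3.06. The standard deviations after removal were 0.59 in HT29 and 0.68 in SW480. The HCT116 value was thus the one that moved most with the correction. BZW1, the close paralogue, had 3594 and 630 reads, which was 56.5% of control (51.8 to 61.5%) and a log2 ratio of −0.82 before and 0.79 after removal, so its direction turned with the correction.

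Base composition was the main axis of difference between the libraries for all remaining genes. The mean GC content of transcripts, weighted by reads, was 46.9% in the control and 51.7% in the knockdown library, and 46.8 to 47.8% in the 4 other libraries. Genes were ranked by transcript GC content and split into 10 groups of equal size. In the group poorest in GC (30.2 to 38.4%) the median log2 ratio was −1.72, 76.1% of genes were at least 2-fold lower and 1.16% at least 2-fold higher. In the richest group (61.5 to 74.4%) the median was 1.33, with 3.47% lower and 64.4% higher. Between these ends the median increased from each group to the next. Across genes the Spearman correlation of the ratio with GC was 0.69 in HCT116, against 0.34 in HT29 and −0.06 in SW480; genes share their library, so these describe the libraries only.

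Length mattered less. The correlation with the length of the longest transcript was −0.26, and the median ran from 0.60 in the second shortest of 10 groups to −1.04 in the longest. When the median transcript of each gene stood for its length the correlation was −0.06. For protein-coding genes the ratio followed the GC of the coding sequence (Spearman 0.62 over 9208 genes) and of the 3′ untranslated region (0.61 over 9116 genes), and less that of the 5′ untranslated region (0.14 over 8224 genes). Genes spanning more of the genome were lower (−0.38 before and −0.12 after removal). A smooth trend in GC content and length took up 46.7% of the variance of log2 ratios in HCT116, 13.4% in HT29 and 3.65% in SW480.

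**Figure D3:**
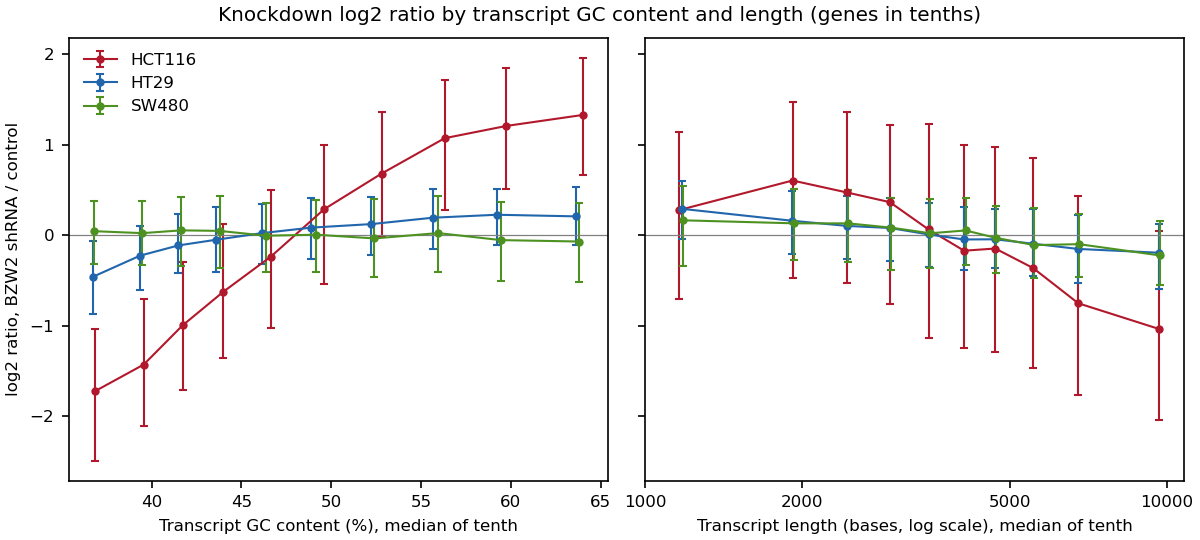
Log2 ratio before trend removal (vertical axis) in 10 equal groups of genes by transcript GC content (left, %) or length (right, bases, log scale), for each line; points are medians and bars run from the lower to the upper quartile. In HCT116 the medians go from −1.72 to 1.33 with GC content, while those of HT29 and SW480 stay between −0.46 and 0.22.

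Removing the trend changed which genes stood out. Leaving aside tail-less RNA, 2938 genes were at least 2-fold higher and 3273 lower before removal (26.1% and 29.1% of 11252), and 1968 and 1836 after it (17.5% and 16.3% of 11249). Of the 2938 higher genes 1226 (41.7%) were still higher afterwards and none was lower. Of the 3273 lower genes 1349 (41.2%) were still lower, and 5 had become higher. A further 737 genes crossed the 2-fold line upwards and 487 downwards only after removal. The standard deviation of ratios across these genes was 1.55 before and 1.13 after, still above 0.59 in HT29 and 0.68 in SW480 after the same correction. There 3.63% and 4.76% of HT29 genes, and 5.01% and 6.45% of SW480 genes, were at least 2-fold higher and lower.

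The 4 genes with most reads that turned from at least 2-fold lower to at least 2-fold higher were all AT-rich. ZNF207, a kinetochore-associated zinc finger protein, had 1341 and 189 reads, and ratios of −1.14 and 1.07. RAB21, a small GTPase of endosomes, had 550 and 73 reads (−1.22 and 1.00), GPR180 429 and 66 (−1.0 and 1.06), and ZNF326 309 and 43 (−1.14 and 1.00). With a trend in length alone the last 3 were −0.04, −0.06 and −0.14, so their higher value rests on the GC term. C2H2 zinc finger genes, taken by their ZNF symbols and encoding mostly DNA-binding regulators, moved toward 0 as a set. ZNF207 and ZNF326 are members of this set that did turn over. Of 313 with enough reads, 128 were lower and 57 higher before removal (median −0.66), beside 28.8% and 26.8% of all genes, and 40 and 32 after it (median 0.02). Those last counts are 12.8% and 10.2%, both under the 16.2% lower and 18.3% higher of all genes.

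Most genes of DNA replication and mitosis were higher in the knockdown library before and after removal. In the replication list 31 of 40 genes were at least 2-fold higher after removal and 0 lower (median 1.56; 1.66 before), beside 18.3% and 16.2% of all genes, the background for each list after removal. MCM5, a subunit of the helicase that opens origins, had 277 and 1262 reads (3.86 before, 2.92 after). MCM7, of the same helicase, had 1047 and 3214 reads (3.30 and 2.18). The polymerase genes POLA2 and POLE had after-removal ratios of 2.25 and 2.24. Of 35 mitosis genes 29 were higher and 0 lower (median 1.71). Before removal 23 were higher and 3 at least 2-fold lower (median 1.42, lowest −2.26). PLK1, a kinase of mitotic entry and spindle assembly, had 27 and 255 reads (4.78 and 3.79). CCNB1, the cyclin of mitotic entry, had 241 and 639 reads (3.08 and 3.68), and CCNA2, the cyclin of S phase and G2, 221 and 464 (2.74 and 3.54). UBE2C, which helps to mark mitotic cyclins for degradation, was at 3.09 after removal. In bulk RNA, more cells in a phase of the cycle and more RNA per cell cannot be told apart. The gene lists were chosen with earlier results known, so these directions are a description. In HT29 and SW480 the medians after removal were 1.11 and 1.10 for replication and 1.12 and 1.36 for mitosis.

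Histone variants whose messages can carry a tail were more mixed. H2AX is counted among them, although its message can also end at a stem-loop. Of 11 such genes 6 were at least 2-fold higher and 2 lower after removal (median 1.18). H2AX, the variant phosphorylated at DNA breaks, had 542 and 7260 reads (5.42 and 4.08). Its ratio before removal lay near the clustered histone median of 5.49. MACROH2A1 had 1122 and 746 reads (1.10 and 2.24), and H2AZ1 1891 and 2184 (1.89 and 1.59).

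Genes of protein breakdown and folding in the cytosol were also higher. After removal 27 of 34 proteasome genes were at least 2-fold higher and 0 lower (median 1.79; 1.54 before), a larger median than in HT29 (0.38) or SW480 (0.71). PSMA5, a subunit of the proteolytic core, had 680 and 757 reads (1.84 and 3.39). PSMC2, an ATPase of the regulatory cap, had 400 and 537 reads (2.10 and 3.38), and POMP, a proteasome assembly factor, 408 and 253 (0.99 and 2.84). Of 19 cytosolic chaperone genes 14 were higher and 0 lower (median 1.36; HT29 0.17, SW480 0.37). HSPA1B, an inducible HSP70 gene, had 460 and 1590 reads (3.47 and 2.22), and its near-identical neighbour HSPA1A 24 and 108, so their split is uncertain. HSPH1, an HSP70 partner, had 1008 and 613 reads (0.97 and 2.30), and FKBP4, a co-chaperone of HSP90, 982 and 1785 (2.55 and 2.10).

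Growth-related metabolism leaned the same way. Nucleotide synthesis genes were at least 2-fold higher in 9 of 18 cases and lower in 1 after removal (median 1.05). PAICS, of purine synthesis, had 240 and 442 reads (2.55 and 3.66), CTPS1, which makes CTP, 319 and 454 (2.19 and 3.06), and CAD, which starts pyrimidine synthesis, 308 and 887 (3.20 and 2.45). Ribosome biogenesis genes were higher in 20 of 39 cases and lower in 0 (median 1.02; HT29 −0.08, SW480 0.45). TCOF1, a nucleolar factor of ribosomal DNA transcription, had 218 and 793 reads (3.53 and 2.74), and POLR1C, shared by RNA polymerases I and III, 291 and 481 (2.40 and 2.62). Of 68 mitochondrial ribosomal protein genes 27 were higher and 0 lower (median 0.87), MRPL15 being farthest with 119 and 193 reads (2.36 and 2.71). In the cholesterol and fatty acid list 10 of 29 were higher and 2 lower (median 0.68). FASN, the fatty acid synthase, had 860 and 2761 reads (3.37 and 2.51), whereas STARD4, a cholesterol carrier, had 695 and 16 (−3.68 and −1.71).

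Cytosolic ribosomal protein genes went the other way from ribosome biogenesis. Of 77 genes 25 were at least 2-fold lower and 0 higher after removal (median −0.73; −0.71 before), and 10 were above 0. RPL26 had 8319 and 313 reads (−3.04 and −2.28), and RPL22 4467 and 298 (−2.21 and −2.36). In all, these genes gave 13.03% of control and 6.70% of knockdown reads. In HT29 and SW480 the medians were 0.20 and −0.55, with 0 and 3 genes at least 2-fold lower. EEF1A1, the elongation factor with 124641 and 15249 reads, stood at −1.34 and −1.0, and PABPC1, the cytoplasmic poly(A)-binding protein, with 7430 and 503 reads, at −2.19 and −2.67.

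**Figure D4:**
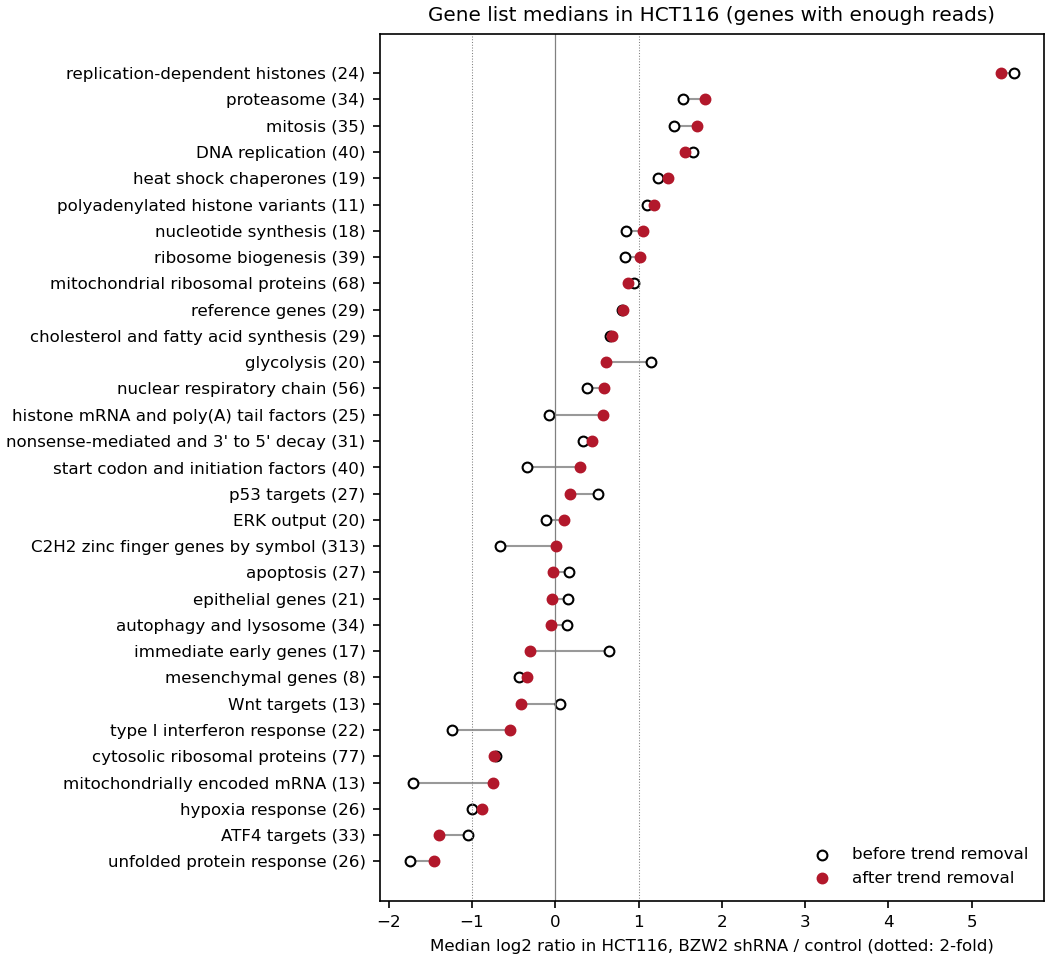
Median log2 ratio in HCT116 of each gene list before (open) and after (filled) trend removal; the number of genes with enough reads is in brackets and dotted lines mark 2-fold. Proteasome, mitosis and DNA replication lie above 1 and ATF4 targets and the unfolded protein response below −1 in both, while zinc finger, initiation factor, interferon and mitochondrially encoded genes are among those that shift toward higher values.

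Stress genes of the ATF4 and endoplasmic reticulum pathways were lower. After removal 18 of 33 ATF4 targets were at least 2-fold lower and 0 higher (median −1.39; −1.04 before), and 3 of the 33 lay above 0. DDIT3, which encodes the stress factor CHOP, had 2021 and 33 reads, 5.26% of control (3.61 to 7.41%; −4.21 and −4.27). PCK2, a mitochondrial enzyme linking amino acids to glucose synthesis, had 475 and 26 reads (−2.46 and −3.80). CHAC1, which degrades glutathione, had 166 and 9 (−2.40 and −3.75), and DDIT4, an inhibitor of mTORC1, 2094 and 175 (−1.89 and −3.07). These genes were lower although several are rich in GC, so trend removal moved their ratios farther from 0. The medians in HT29 and SW480 were −0.89 and −1.20.

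The unfolded protein response list had 16 of 26 genes at least 2-fold lower and 0 higher after removal (median −1.46; −1.74 before), against medians of −0.32 in HT29 and −1.05 in SW480. HSP90B1, the HSP90 of the endoplasmic reticulum, had 36573 and 699 reads, 6.16% of control (5.70 to 6.63%; −4.02 and −3.06). PDIA4, a disulphide isomerase there, had 9067 and 526 reads (−2.42 and −3.18). HERPUD1, of the degradation of misfolded proteins, had 1869 and 71 (−3.01 and −3.12), and the co-chaperone DNAJB9 672 and 9 (−4.40 and −3.37). Together the genes of this list gave 2.33% of control reads and 0.48% of knockdown reads. The median of this list and that of the cytosolic chaperones thus lay on opposite sides of 0, with 2 of 26 and 18 of 19 genes above 0 after removal.

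The hypoxia list had a median below 0 and the glycolysis list 1 above 0. Of 26 hypoxia genes 12 were at least 2-fold lower and 0 higher after removal (median −0.87). NDRG1, a stress and hypoxia marker, had 1876 and 119 reads (−2.28 and −2.83), SLC2A3, a glucose transporter, 123 and 3 (−3.31 and −2.93), and BNIP3L, a mitophagy receptor, 943 and 21 (−3.74 and −2.41). Of 20 glycolysis genes 6 were higher and 2 lower (median 0.61; 1.15 before), which is 30% and 10% beside 18.3% and 16.2% of all genes. The glycolysis median was −0.34 in HT29 and −0.60 in SW480. PGK1 had 3925 and 2618 reads (1.10 and 1.92) and PKM 2793 and 3748 (2.11 and 1.33), whereas ALDOC, the brain-type aldolase, had 308 and 47 (−1.01 and −2.14). The 2 hypoxia genes NDRG1 and BNIP3L were lower in all 3 lines.

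Mitochondrially encoded messages had a median below 0, and nuclear subunits of the same complexes 1 above 0. All 13 mitochondrial messages were below 0 before removal, 10 of them at least 2-fold lower (median −1.71), and 6 were after it (median −0.74). MT-CO3, a cytochrome c oxidase subunit, had 8059 and 401 reads (−2.64 and −2.0), and MT-CO1 16771 and 1593 (−1.71 and −1.50). Of 56 nuclear respiratory chain genes 15 were higher and 0 lower after removal (median 0.58), which is 26.8% and 0% beside 18.3% and 16.2% of all genes, with ATP5MC3, an ATP synthase subunit, at 440 and 310 reads (1.18 and 2.40) and NDUFS1, of complex I, at 649 and 278 (0.46 and 1.93). Reads from the mitochondrial genome were 0.757% of the control and 0.289% of the knockdown library. They were also lower in the knockdown libraries of HT29 (0.524% and 0.305%) and SW480 (0.834% and 0.582%).

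Initiation factors, the class BZW2 acts on, changed side with the correction. Before removal 9 of 40 were at least 2-fold higher and 13 lower (median −0.33), which is 22.5% and 32.5% beside 26.8% and 28.8% of all genes. After it 13 and 2 were (median 0.30), which is 32.5% and 5% beside 18.3% and 16.2%. The list includes BZW1 and the targeted gene BZW2, which counts as lower both before (−2.47) and after removal (−1.01). The 2 lower genes after removal were BZW2 and EIF2S2. EIF4A1, the helicase of the cap-binding complex, had 254 and 523 reads (2.71 and 2.36). EIF2B2 and EIF2B4, subunits of the exchange factor of eIF2, were at 2.04 and 1.81 after removal. EIF2S2, the beta subunit of eIF2, had 1903 and 101 reads (−2.54 and −2.23). With the trend in length alone the list's median after removal was −0.06.

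Interferon-induced genes were lower before removal and less so after it. Of 22 with enough reads 14 were lower and 1 higher before (median −1.24), and 8 and 1 after (median −0.54). IFI6 had 307 and 21 reads (−2.13 and −2.69), SAMD9, an antiviral factor, 268 and 2 (−4.83 and −2.87), and OAS3, a sensor of double-stranded RNA, 158 and 184 (1.89 and 1.35). The median after removal was −2.19 in HT29 and 0.89 in SW480. For ERK output, immediate early, p53, Wnt, apoptosis, autophagy and lysosome, epithelial and mesenchymal genes the medians after removal lay between −0.41 and 0.18. Single members differed more. EGR1, an immediate early factor, had 260 and 15 reads (−2.36 and −3.31), MAP1LC3B, the autophagosome protein LC3B, 818 and 36 (−2.79 and −3.22), DKK1, a secreted Wnt inhibitor, 1091 and 1034 (1.61 and 2.19), and CLDN3, a tight junction claudin, 128 and 14 (−1.45 and −2.68). Even the list of genes often used as references had a median of 0.81, with 11 of 29 at least 2-fold higher and 1 lower; POLR2A, the large subunit of RNA polymerase II, had 555 and 1781 reads (3.36 and 2.68).

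Apart from these lists, the genes with at least 200 reads that lay farthest from 0 after removal were named by rank. On the lower side SAT1, the enzyme that acetylates polyamines for breakdown, was first with 11976 and 72 reads, 1.94% of control (1.51 to 2.44%; −5.67 and −4.79). It was also lower in HT29 (−1.41) and SW480 (−2.86). NUCB2, the nesfatin precursor, had 821 and 7 reads (−5.01 and −4.24), MRC2, a collagen receptor, 257 and 11 (−2.76 and −3.81), and AHNAK2 1814 and 56 (−3.31 and −3.71). SMIM14 had 1437 and 12 reads (−5.11 and −3.66), PNRC1, a nuclear receptor coactivator, 353 and 8 (−3.63 and −3.66), LYSMD3 634 and 3 (−5.65 and −3.56) and ANKRD36C 732 and 6 (−5.04 and −3.72). DDIT3 and PCK2 completed this group of 10.

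On the higher side 5 of the 10 are cell cycle or nucleotide synthesis genes or H2AX described above, namely H2AX, PLK1, CCNB1, PAICS and CCNA2. H2AX was ranked here with the tailed genes, although its message can also end at a stem-loop. KIF18B, a mitotic kinesin, had 23 and 206 reads (4.68 and 3.62). GALNT5, which starts mucin-type glycans, had 94 and 176 (2.55 and 3.85), and UBAP2 222 and 227 (1.71 and 3.51). CPA4, a secreted carboxypeptidase, had 149 and 642 (3.77 and 3.49), and RAVER1, a splicing regulator, 25 and 210 (4.60 and 3.45). GALNT5 was at −0.33 in SW480 and had too few reads in HT29.

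A total of 129 genes with control reads had 0 reads in the knockdown library, and no gene showed the reverse. Depth bears on this count: the control held 5640626 reads and the knockdown library 2187373. Listed genes had at least 21 reads over both, which is a higher level in the shallower knockdown library than in the control. The 129 genes had between 21 and 188 reads in the control (median 39). Of these, 95 (73.6%) had transcripts under 45% GC, beside 38.5% of all listed genes. The 4 with most control reads were ATP8A1, a phospholipid flippase (188 reads), the pseudogene ZNF204P (172), SPX, a peptide hormone (158), and GRAMD1C, a sterol transfer protein (147). The upper limits of their exact intervals, before trend removal, were 6.38%, 6.98%, 7.61% and 8.19% of control. Genes of their GC content and length were lower as a rule, so the limits after removal would be higher.

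Many HCT116 differences had the same direction in the other lines after trend removal. Of the genes at least 2-fold higher in HCT116, 73.6% of 1752 measured in HT29 were above 0 there, beside 53.4% of all genes in both. In SW480 it was 77.2% of 1834, beside 53.1%. Of the lower genes 67.1% of 1336 were below 0 in HT29 (46.6% of all) and 75.8% of 1759 in SW480 (46.9% of all). Before removal the shares were 65.9% and 63.3% in SW480 and 74.4% and 74.4% in HT29. The shares were thus larger after removal in SW480, and smaller in HT29, mainly for the lower genes. Each line had its own control library. At least 2-fold in the same direction was less common: 156 of 1752 higher genes in HT29 (8.90%, beside 3.46% of all genes) and 258 of 1834 in SW480 (14.1%, beside 4.67%). Seen from the other side, these were 46.3% of the 337 higher genes of HT29 and 51.2% of the 504 of SW480, beside 18% and 17% of all shared genes that were higher in HCT116. On the lower side 188 of 1336 genes were at least 2-fold lower in HT29 (14.1%, beside 4.36% of all genes) and 327 of 1759 in SW480 (18.6%, beside 5.84%).

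Of 6399 genes with at least 200 reads in each pair, 59 were at least 2-fold higher and 43 lower in all 3 lines. The 5 higher genes with the largest smallest ratio are all cell cycle genes. KIF20A, a kinesin of cytokinesis, had ratios after removal of 2.67 (HCT116), 1.80 (HT29) and 2.11 (SW480). CCNA2 stood at 3.54, 1.67 and 1.75, BUB1B, a checkpoint kinase, at 1.84, 1.68 and 1.95, ZWINT, a kinetochore protein, at 2.25, 1.62 and 1.94, and the checkpoint protein MAD2L1 at 2.90, 1.46 and 1.56. The 5 lower genes were led by NDRG1 (−2.83, −4.49 and −3.28) and DDIT3 (−4.27, −2.73 and −4.72). ALDOC (−2.14, −2.30 and −2.22), EGR1 (−3.31, −1.86 and −2.32) and KLF4, a factor of epithelial differentiation (−1.85, −1.82 and −1.93), followed.

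A larger number, 216 higher and 137 lower, was at least 2-fold different in HCT116 and close to equal in both others, within the limit set for named genes. Ratios after removal spread more widely in HCT116 (standard deviation 1.13, without tail-less RNA) than in HT29 (0.59) or SW480 (0.68). The share of all genes close to equal in both others was not computed, so these counts have no background. They do not mark a line-specific set, and the difference between lines was not tested. MED15, a Mediator subunit, had 102 and 453 reads (2.67 after removal; 0.20 in HT29 and 0.03 in SW480). MTO1 and CDK5RAP1, which both modify mitochondrial transfer RNA, had 265 and 179 reads and 165 and 270 reads (2.49 each). VPS52, of vesicle tethering, had 75 and 193 reads (2.38). On the lower side TMSB4X, the actin-binding thymosin beta-4, had 2033 and 129 reads (−3.01; −0.10 and −0.15 in the others), AMZ2, a metallopeptidase, 859 and 73 (−2.65), the annexin gene ANXA6 1512 and 166 (−2.56) and GM2A, a lysosomal activator protein, 325 and 20 (−2.35). These genes differ widely in GC content, from 42.4% in MTO1 to 61.7% in MED15.

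**Figure D5:**
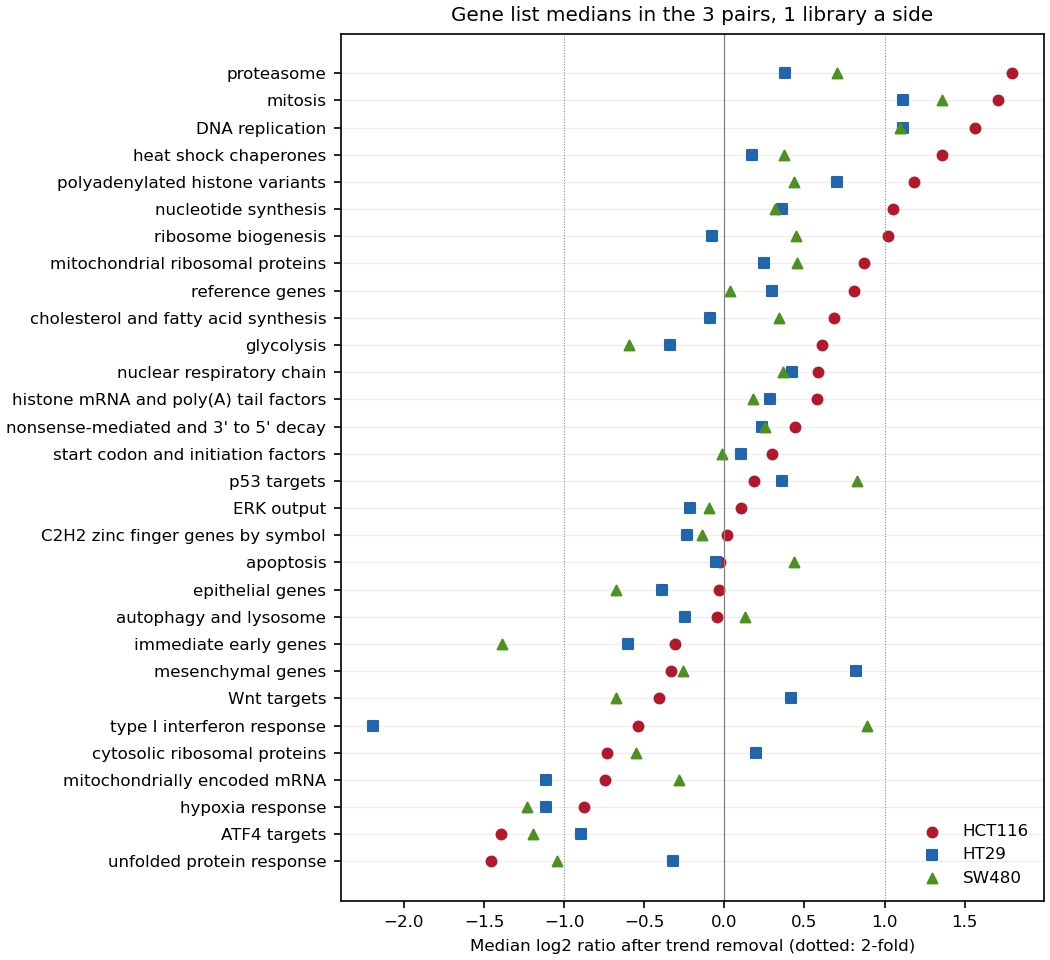
Median log2 ratio after trend removal of each gene list in HCT116 (circles), HT29 (squares) and SW480 (triangles), 1 library a side in each line. Mitosis and DNA replication lie above 1 and ATF4 and hypoxia targets below −0.8 in all 3 lines, while interferon response runs from −2.19 in HT29 to 0.89 in SW480.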

How the data were processed

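RNA-seq libraries of HCT116 control and knockdown cells were compared, with HT29 and SW480 for reference. Per the submitters' processing notes, bcl2fastq 2.17, STAR 2.5.2b and DESeq were used with GRCh38. What counted the genes, with which annotation and strand setting, is not given in the sources used here. Overlapping and antisense genes are therefore uncertain. The deposited signal is a gene count divided by the authors' size factor, set per line. Divided by the value of 1 read, 100% of values came out whole to within 0.1. The table had 266314 rows and 13040 identifiers; 19 repeated identifiers were left out. Listed HCT116 genes had at least 21 reads over both libraries, so genes below that are not in the comparison.

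Reads were scaled by TMM in edgeR 4.0.16 (R 4.3.3), and log2 ratios used a prior count of 2. A smooth trend in GC content and log10 length of the longest GENCODE 29 transcript (11950 genes) was fitted with mgcv 1.9.3 to genes with enough reads that are not poly(A)-lacking, and subtracted from all. Such a fit also takes out any biological difference that follows GC content. Poly(A)-lacking RNA means clustered histone genes, 4 of them added by annotation name after their values were seen, and small RNA biotypes. Intervals are exact Clopper-Pearson intervals.

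Members and gene lists were chosen with earlier results of these data known. Named genes followed a rule: BZW2 and BZW1; the 10 farthest from 0 each way after removal with at least 200 reads; the 3 highest histone and 3 highest small RNA genes; up to 4 members per list with at least 100 reads, and 1 on the other side; the 4 sign changes and 4 genes at 0 with most reads; 5 each way shared by all lines, and 4 each way in HCT116 with both others within 1.25-fold. A few genes that the rule names are not reported here. The histone genes, small RNAs and markers named beyond it were chosen after their values were seen. Alternatives covered scaling, prior count, CPM minimum, thinning and the form of the trend.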

Additional observations from a re-analysis of the deposited data

Results flagged for a closer look

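Glycolysis genes lay on opposite sides of 0 in HCT116 and SW480. Their median log2 ratio after trend removal was 0.61 in HCT116 and −0.60 in SW480, past 0.5 on both sides, and −0.34 in HT29. The difference between the lines was not tested, since each has 1 library a side.

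Type I interferon response genes did so in the other order, with a median of −0.54 in HCT116 and 0.89 in SW480, and −2.19 in HT29. The difference was not tested.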

How the results depend on the processing

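With 1 library a side no library could be left out. No paired analysis was possible because HCT116 has a single sample in each group; a fit over the 3 lines would not test HCT116. Among the counts of genes at least 2-fold higher or lower, a trend in length alone left 3121 higher and 2855 lower genes after removal, against 2078 and 1836; all other settings stayed within 1.5-fold. Scaling by library size shifted the median of all genes to −0.36 and gave 2251 higher and 4128 lower genes before removal, against 3049 and 3273. BZW2 stood at 48.2% of control after trend removal. The correlation with length was −0.065 with the median transcript. The share of higher genes above 0 in HT29 was 79.4% with a minimum of 20 CPM. Before removal the share of lower genes below 0 in HT29 was 74.4%, and the shares for SW480 were 65.9% and 63.3%. With a trend in length alone EPHB2 turned to 0.37, EREG to −0.36, H3-3A to −0.28, GPR180 to −0.063, RAB21 to −0.043 and ZNF326 to −0.14. No other named gene past 2-fold changed direction in the settings run. Medians of gene lists moved by more than their members' counting error in 19 of 160 values before and 43 of 288 after removal. Depth limits genes with few knockdown reads, as their intervals show.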

Other observations

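Genes were also grouped by chromosome. Before trend removal the median log2 ratio was 1.00 on chromosome 19, 0.90 on 16 and 0.86 on 22, and −0.98 on 13, −0.97 on 4 and −0.96 on 18. After removal it was 0.05 on chromosome 19, −0.07 on 13 and 4, and 0.01 on 18. Chromosome 16 went from 0.90 to 0.37 over 520 genes, with 121 at least 2-fold higher and 54 lower after removal (23.3% and 10.4%, beside 18.3% and 16.2% of all genes). Chromosome 17 went from 0.68 to 0.21 over 653 genes, with 142 and 94 (21.7% and 14.4%), near the shares of all genes. In HT29 and SW480 these medians were 0.11 and 0.13 for chromosome 16 and 0.06 and 0.07 for chromosome 17.

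Processed pseudogenes, intronless copies of messages, had a median of −0.41 after removal: of 115 with enough reads 33 were at least 2-fold lower and 12 higher (28.7% and 10.4%, beside 16.2% and 18.3% of all genes), and 40 lay above 0. Their median after removal was 0.14 in HT29 and −0.37 in SW480. How reads were split between these copies and their source messages is not known. Protein-coding genes with a single exon in every transcript had a median of 0.06 over 111 genes, close to 0.07 for spliced ones.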
